A study of Solea senegalensis with 30 samples.

Results

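The miR-181 family was followed in the blood plasma of 30 Senegalese sole (Solea senegalensis), a flatfish farmed in Europe. Its members were all rows of the count table listed as miR-181 with any letter or arm, and these were 51 of 2129 isomiRs and 5 of 172 miRNA names. An isomiR is a distinct read sequence counted under a miRNA name. The fish were breeders born and reared in captivity, given a single intramuscular injection of KISS2-10 (a decapeptide of the neuropeptide kisspeptin, which stimulates the release of gonadotropins) at 250 µg/kg, or of phosphate buffered saline. The saline fish are labelled untreated and are called control here. The groups were 5 kisspeptin females and 5 control females at 2 d after the injection, 6 kisspeptin males and 4 control males at 2 d, and 5 kisspeptin males and 5 control males at 4 d. Fish bled at 2 d and at 4 d came from different tanks, and each tank had 1 treatment, so treatment and day cannot be told apart from the tank. Each library is 1 fish, and the total was between 25468 and 191846 counts (median 60539). A library with no miR-181 count can still hold up to 3 counts, which is 15.6 cpm (counts scaled to a common library total) in the largest library and 118 cpm in the smallest, by counting error only. Plasma RNA comes from many tissues, and fewer source cells and less RNA per cell cannot be told apart in it.

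MicroRNAs are short RNAs that guide Argonaute proteins to messenger RNAs, mostly by pairing through the seed, bases 2 to 8 from the 5′ end. The hairpin precursor yields a 5p and a 3p arm, and usually one of the arms is kept. The miR-181 family is conserved among vertebrates, where its hairpins lie in clusters that pair an a with a b copy or a c with a d copy. In the mouse, miR-181a is known for its part in the development of T and B lymphocytes and in setting the sensitivity of T cell receptor signalling.

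The deposited isomiRs below are the most counted form of each miR-181 name, together with the other forms that hold the bulk of miR-181a-5p, miR-181b and miR-181a-3p reads and the most counted miR-181a-5p form with a later 5′ end. They are shown because the names differ by few bases and the forms of 1 name differ mainly at the 3′ end. Each is written 5′ to 3′ with T in place of U, as counted, and capitals mark bases 2 to 8.
miR-181a-5p, 22 nt: aACATTCAacgctgtcggtgag
miR-181a-5p, 21 nt: aACATTCAacgctgtcggtga
miR-181a-5p, 23 nt: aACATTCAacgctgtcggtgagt
miR-181a-5p, 19 nt, from base 3: cATTCAACgctgtcggtga
miR-181b, 23 nt: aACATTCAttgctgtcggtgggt
miR-181b, 22 nt: aACATTCAttgctgtcggtggg
miR-181b, 21 nt: aACATTCAttgctgtcggtgg
miR-181c, 22 nt: aCATTCATtgctgtcggtgggt
miR-181d, 22 nt: aACATTCAttgttgtcggtggg
miR-181a-3p, 22 nt: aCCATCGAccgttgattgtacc
miR-181a-3p, 21 nt: aCCATCGAccgttgattgtac

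Over 23 bases, miR-181a-5p and miR-181b shared 20 and differed by A9T, C10T and A21G, with the miR-181a-5p base first and positions counted from 1 at the 5′ end. All 3 differences lay outside the seed. The single miR-181d read differed from the 22-nt form of miR-181b by C12T. The leading form of miR-181c was the leading form of miR-181b without its first base, so its bases 2 to 8 were shifted by 1 position. Forms with the seed ACATTCA, from 4 names, held 84.6% of miR-181 counts. Most other 5p seeds came from later 5′ ends, with CATTCAA at 3.51% and ATTCAAC at 2.99%, both in miR-181a-5p, and CATTCAT at 2.87%, in miR-181b and miR-181c. The seed of the 3p arm, CCATCGA, held 2.70%.

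The family had 3480 counts, 0.146% of all counts of the 172 names, and ranked 33 of 98 miRNA numbers. Shares, ranks and cpm are relative to these names only, among which let-7 and miR-100 are not found, and other names were not analysed here. miR-181a-5p held 2561 of these counts (73.6%), miR-181b 709 (20.4%), miR-181a-3p 145 (4.17%), miR-181c 64 (1.84%) and miR-181d 1 (0.0287%). The names without an arm (b, c and d) are 5p sequences by their match to miR-181a-5p, so 3335 counts were 5p. Within miR-181a the 5p arm had 17.7 times the counts of the 3p arm.

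The counts were spread unevenly over the fish. At least 1 miR-181 read was counted in 27 of 30 libraries, and 9 libraries with 100 counts or more held 75.9% of all miR-181 counts. miR-181a-5p and miR-181b were each counted in 20 libraries and both in 14. miR-181a-5p exceeded miR-181b in 15 libraries, and miR-181b exceeded miR-181a-5p in 10. The pooled share of miR-181a-5p therefore did not describe a typical library. miR-181c was counted in 9 libraries, never above 15 counts, and miR-181d in 1.

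**Figure D1:**
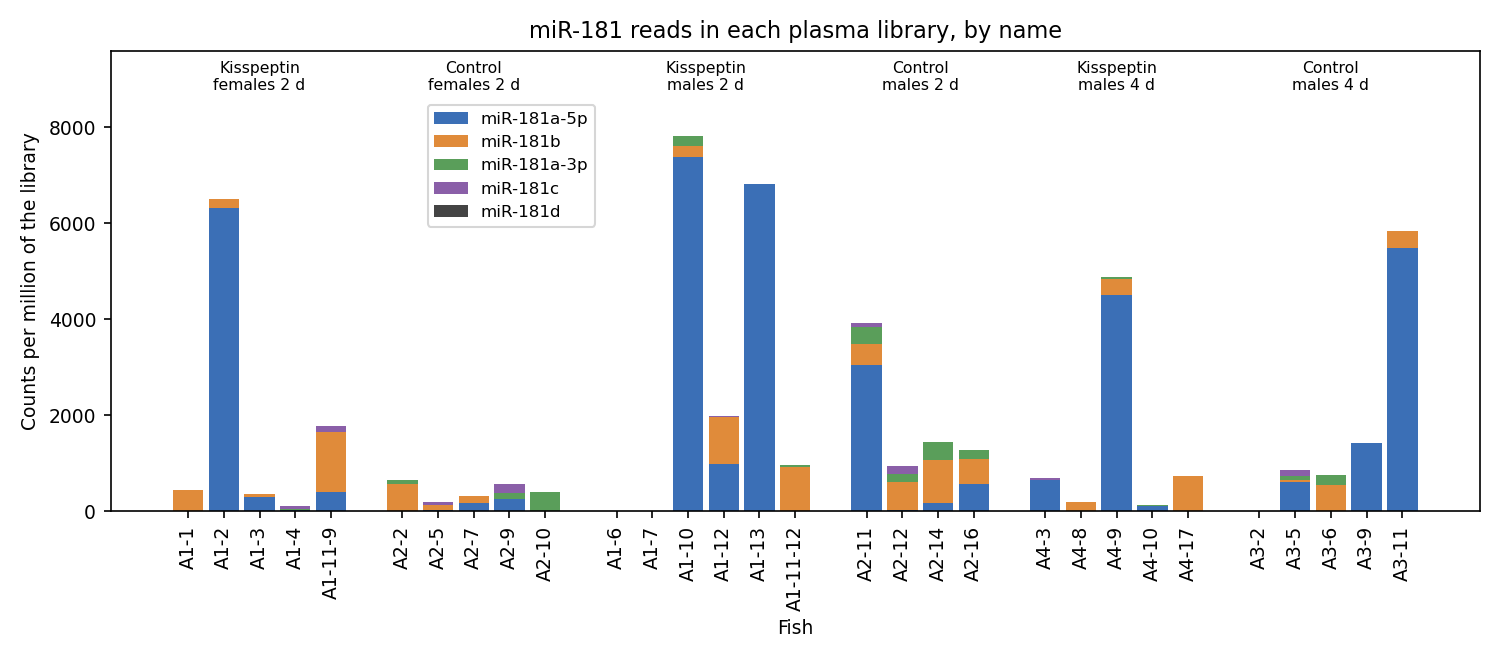
Cpm listed under each miR-181 name (stacked bars, vertical axis) in the 30 fish (horizontal axis), by sex, treatment and day. In 3 fish no miR-181 read was counted, and the tallest bars, led by miR-181a-5p, stand in both treatments.

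The most counted forms of miR-181a-5p were each found in few fish. The 22-nt form was the most counted over all libraries, with 1014 counts (39.6% of the name), but it was found in only 2 fish, with 565 counts in kisspeptin female A1-2 and 449 in kisspeptin male A4-9 at 4 d. The 21-nt form had 868 counts (33.9%) in 3 fish, with 466 and 242 in kisspeptin males A1-10 and A1-13 at 2 d and 160 in control male A3-11 at 4 d. The 23-nt form had 284 counts (11.1%), with 95 in control male A2-11 at 2 d and 189 in control male A3-9 at 4 d. No fish had counts of more than 1 of these 3 forms.

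Taking all forms of miR-181a-5p that begin at base 1, 6 forms were found in 11 libraries. Only 1 form was counted in 8 of these libraries, and 2 forms in the other 3. The top form held from 93.0% to 100% of such reads in a library, and 5 different forms were the top one in at least 1 library. The other 9 libraries with miR-181a-5p had reads with a later 5′ end only. Over forms of any 5′ end, the top form held from 41.7%, in kisspeptin male A1-12 at 2 d, to 100% of miR-181a-5p reads in the 20 libraries (median 96.7%), and 9 of them had a single form. For miR-181b, 6 forms that begin at base 1 were found in 18 libraries, 14 of them with a single form and 2 with 3 or more. Its top form held at least 71.1%, and all 6 forms were the top one somewhere. Over forms of any 5′ end it held from 50% to 100%.

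**Figure D2:**
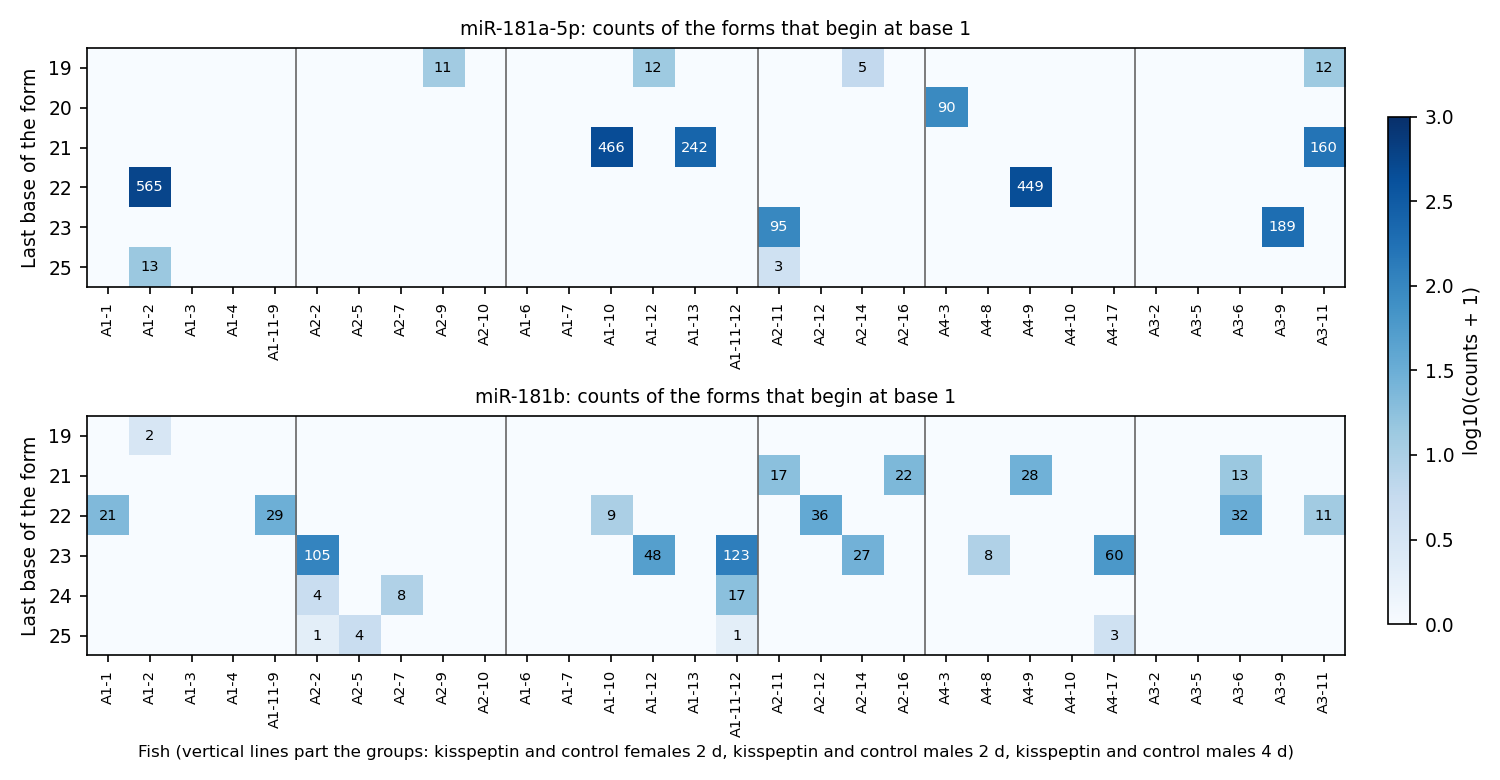
Counts of the miR-181a-5p (top) and miR-181b (bottom) forms that begin at base 1, by the last base of the form (rows) and fish (columns), with colour giving log10(counts + 1). In the top panel 11 of the 30 columns hold 1 or 2 forms and the other 19 are empty, and the filled row changes between fish of the same group.

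The same was described in the rest of the table for scale, with no test. Among libraries with at least 20 counts of a name, the most counted isomiR of that name was at 0 in 12 of 14 for miR-181a-5p (85.7%) and in 6 of 11 for miR-181b (54.5%). For the other names it was at 0 in 496 of 1716 pairs of name and library (28.9%, 110 names). With only pairs of up to 578 counts, the highest count of miR-181a-5p in a library, the share was 433 of 1206 (35.9%, 104 names).

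In pooled counts the 5′ end was more uniform than the 3′ end. Reads starting at base 1 of the leading form made up 90.3% of miR-181a-5p, and base 2 and base 3 held 4.76% and 4.06%. In miR-181b these shares were 88.7%, 6.06% and 2.96%. The last base of miR-181a-5p reads was base 22 in 41.8%, base 21 in 38.4%, base 23 in 12.8% and base 20 in 4.69%. miR-181b reads ended later, at base 23 in 57.7%, base 22 in 21.2%, base 21 in 15.5% and base 24 in 4.09%. These are shares of pooled counts, which the few libraries with many reads set. Single fish could differ, and in 9 of the 20 libraries with miR-181a-5p no read began at base 1.

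miR-181c could hardly be told from miR-181b. Of its 64 counts, 60 were of 4 sequences that are also listed under miR-181b, where they had 59 counts. These sequences were counted in 17 pairs of library and sequence, with equal counts under both names in 4 and a count under 1 name only in 13. Levels of miR-181c, and the miR-181b forms with a later 5′ end, are uncertain for this reason.

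By level, all miR-181 reads together averaged a log2 cpm of 9.31 ± 2.44 (SD, n = 30), with library sizes scaled by TMM and a prior count of 1, on which scale a count of 0 stands at 3.717. The mean log2 cpm was 9.51 ± 2.12 in kisspeptin females and 8.85 ± 0.70 in control females at 2 d (SD, n = 5 each). In males at 2 d it was 8.96 ± 4.19 with kisspeptin (n = 6) and 10.40 ± 0.74 in controls (n = 4). In males at 4 d it was 9.16 ± 1.85 with kisspeptin and 9.26 ± 3.24 in controls (n = 5 each). Ordered by mean, control males at 2 d came first, then kisspeptin females, control males at 4 d, kisspeptin males at 4 d, kisspeptin males at 2 d and control females. Each neighbouring pair in this order differed by less than the larger of its SDs.

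The spread between fish was large for miR-181a-5p and miR-181b, each of which was at 0 counts in 10 libraries. The SD of log2 cpm over the 30 libraries was 3.31 for miR-181a-5p, rank 4 among 136 names, whose median SD was 1.73. It was 2.48 for miR-181b (rank 19), 1.79 for miR-181a-3p (rank 66) and 1.38 for miR-181c (rank 84), the last being low since most libraries were at 0.

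**Figure D3:**
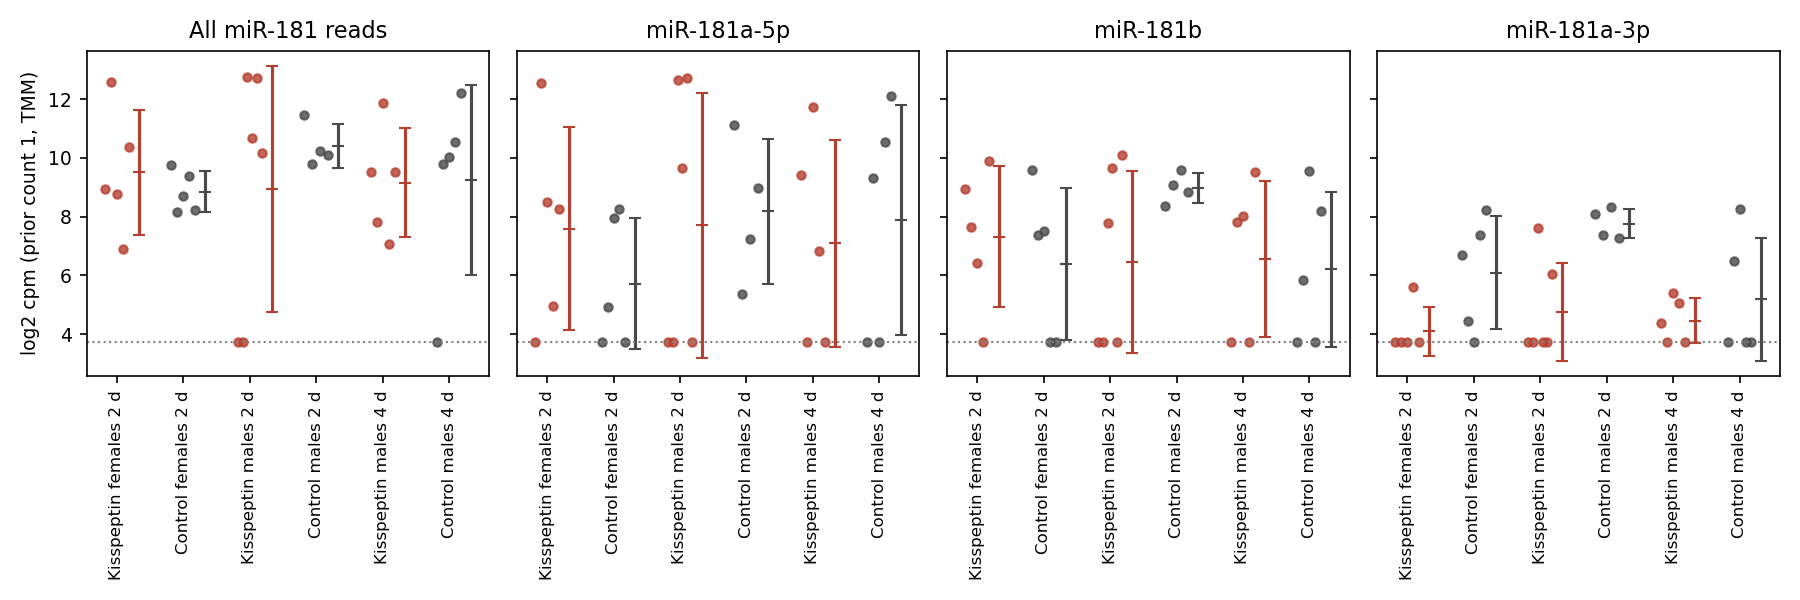
Log2 cpm (TMM, prior count 1) of all miR-181 reads, miR-181a-5p, miR-181b and miR-181a-3p in each fish (points), with the mean and SD of each group of sex, treatment and day (bars), kisspeptin in red and control in grey. The dotted line marks a count of 0 (3.717), and all 4 control males at 2 d lie above it in each panel.

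In females at 2 d, no miR-181 name passed the test of kisspeptin against control. Summed miR-181 reads stood at 440, 6508, 354, 104 and 1767 cpm in kisspeptin females, against 641, 196, 305, 558 and 397 cpm in control females. The groups overlapped, and the highest kisspeptin value, that of fish A1-2, was far above the rest. Kisspeptin over control was 1.84 on the log2 scale (standard error 1.30, adjusted p = 0.5997, Benjamini-Hochberg, by the quasi-likelihood test of edgeR). Without A1-2 it was 0.40 (adjusted p = 0.925, edgeR).

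miR-181a-5p, the main arm of miR-181a, had 0, 578, 38, 1 and 10 counts in kisspeptin females, against 0, 2, 22, 21 and 0 in control females. Its log2 ratio of kisspeptin over control was 3.64 (standard error 2.09, adjusted p = 0.581, edgeR), and without A1-2 0.76 (adjusted p = 0.881, edgeR). With any 1 fish left out it ran from 0.76 to 4.72. miR-181b had 21, 18, 8, 0 and 32 counts in kisspeptin females, against 110, 18, 16, 0 and 0 in control females. Its log2 ratio of kisspeptin over control was 0.64 (standard error 1.60, adjusted p = 0.874, edgeR), and it turned to −0.43 without kisspeptin female A1-11-9 and was 2.25 without control female A2-2. Of the 123 names tested, 0 were called (0%) by edgeR at an adjusted p under 0.05, and 11 had an unadjusted p under 0.05. Of the 4 miR-181 names among them (miR-181d was too sparse), 1 had an unadjusted p under 0.05, and limma-voom and DESeq2 called none of the 4.

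In males at 2 d, the 2 largest and the 2 smallest values of the comparison were all in kisspeptin fish. Summed miR-181 reads ranged from 0 to 7824 cpm with a median of 1477 cpm in kisspeptin males, against 3922, 949, 1437 and 1263 cpm in control males. No miR-181 read was counted in kisspeptin males A1-6 and A1-7, and A1-10 and A1-13 had the highest levels of all 30 fish. Kisspeptin over control was 0.82 on the log2 scale (standard error 1.32, adjusted p = 0.903, edgeR), whereas the mean log2 cpm above was lower with kisspeptin. The cause of this difference in sign was not tested. Before logs were taken, the mean was 2935 cpm in kisspeptin males and 1893 cpm in control males. With limma-voom kisspeptin over control was −1.44 (adjusted p = 0.908), and edgeR gave 0.14 without A1-10 and 1.43 without control male A2-11.

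miR-181a-5p had 0, 0, 466, 48, 242 and 0 counts in kisspeptin males at 2 d, against 120, 2, 5 and 24 in control males. Its log2 ratio of kisspeptin over control was 1.37 (standard error 2.00, adjusted p = 0.842, edgeR), and −1.12 with limma-voom. Without control male A2-11 edgeR gave 3.15, and without kisspeptin male A1-13 0.61. miR-181b had 0, 0, 15, 48, 0 and 146 counts in kisspeptin males, against 17, 38, 27 and 22 in control males. Its log2 ratio of kisspeptin over control was −0.80 (standard error 1.61, adjusted p = 0.847, edgeR), and −2.89 with limma-voom (adjusted p = 0.491). Without kisspeptin male A1-11-12 edgeR gave −1.45, and without A1-7 −0.31. Counts of both names were found in all 4 control males, and 3 of 6 kisspeptin males were at 0 for each. edgeR called 0 of 123 names (0%), with 10 at an unadjusted p under 0.05, none of them miR-181, and DESeq2 called 1 name and limma-voom 0, none of them miR-181.

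Levels overlapped widely in males at 4 d. Summed miR-181 reads stood at 694, 194, 4873, 121 and 734 cpm in kisspeptin males, against 0, 860, 748, 1417 and 5837 cpm in control males. Kisspeptin over control was −0.60 on the log2 scale (standard error 1.25, adjusted p = 0.977, edgeR). It turned to 0.43 without control male A3-11 and was −1.84 without kisspeptin male A4-9.

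For miR-181a-5p, the kisspeptin males at 4 d had 90, 0, 469, 5 and 0 counts, against 0, 57, 0, 189 and 172 in control males. Its log2 ratio of kisspeptin over control was −0.58 (standard error 1.90, adjusted p = 0.982, edgeR), and 0.67 without A3-11. miR-181b had 0, 8, 34, 0 and 63 counts in kisspeptin males, against 0, 4, 53, 0 and 11 in control males. Its log2 ratio of kisspeptin over control was 0.38 (standard error 1.77, adjusted p = 0.982, edgeR), and −0.64 without kisspeptin male A4-17 and 1.60 without control male A3-6. edgeR called 0 of 107 names (0%), with 2 at an unadjusted p under 0.05, and DESeq2 and limma-voom called 0. Of the family, 3 names were tested here.

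**Figure D4:**
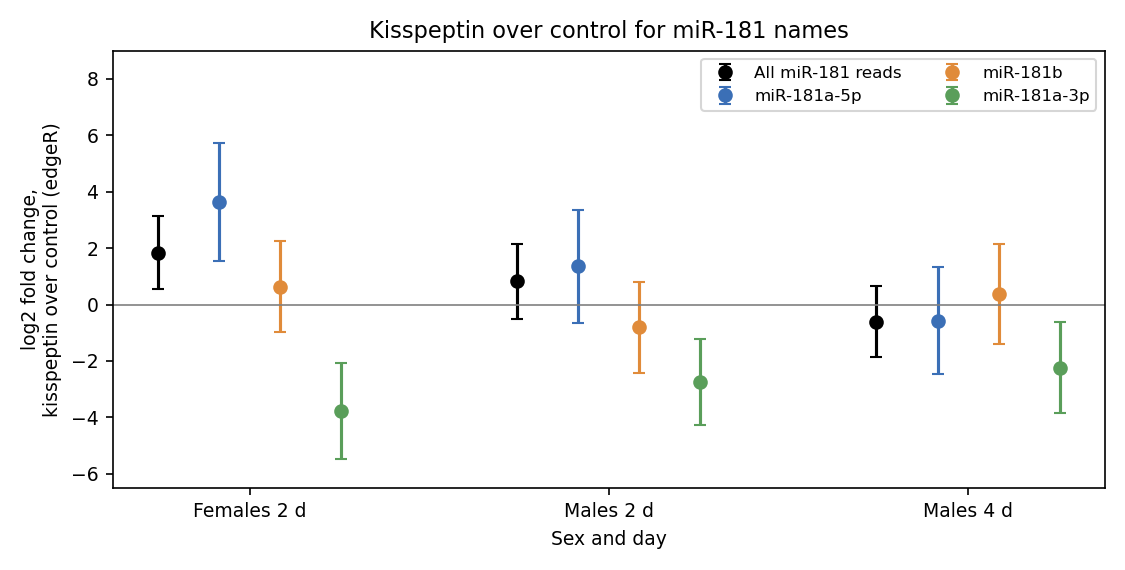
Log2 fold change of kisspeptin over control (vertical axis, edgeR, with 1 standard error as bars) for all miR-181 reads, miR-181a-5p, miR-181b and miR-181a-3p in females at 2 d, males at 2 d and males at 4 d. The points for miR-181a-3p lie below 0 in all 3 comparisons, and no point passed an adjusted p of 0.05.

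The kisspeptin effect on summed miR-181 reads was not shown to differ between the sexes or the days. The log2 difference of the effect, males minus females at 2 d, was −1.02 (standard error 1.80, adjusted p = 0.891, edgeR), and it was 0.42 without A1-2. Between the days in males, 4 d minus 2 d, it was −0.86 (standard error 2.05, adjusted p = 0.883, edgeR). For miR-181a-5p these differences were −2.27 (standard error 2.68, adjusted p = 0.780, edgeR) and −2.07 (standard error 2.90, adjusted p = 0.855, edgeR). For miR-181b they were −1.44 (standard error 2.28, adjusted p = 0.873, edgeR) and 0.91 (standard error 2.46, adjusted p = 0.872, edgeR).

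Over both treatments, no difference in level between the sexes or the days passed the threshold. In males minus females at 2 d the log2 difference of summed miR-181 reads was 1.12 (standard error 0.91, adjusted p = 0.549, edgeR). In males at 4 d minus 2 d it was −0.60 (standard error 1.02, adjusted p = 0.902, edgeR). edgeR called 0 names (0%) in these 4 comparisons, of 123 tested between the sexes and 125 between the days. Between 7 and 13 names had an unadjusted p under 0.05 in each, none of them miR-181. DESeq2 called 1 or 2 names and limma-voom 0 or 1 in each, none of them miR-181.

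The 3p arm of miR-181a was chosen for description after its values were seen, since it holds under 5% of miR-181 counts. It was counted in 1 of 5 kisspeptin females, against 4 of 5 control females, in 2 of 6 kisspeptin males at 2 d, against 4 of 4 control males, and in 3 of 5 kisspeptin males at 4 d, against 2 of 5 control males. In females its counts were 0, 0, 0, 2 and 0 with kisspeptin, against 13, 1, 0, 11 and 21 in controls. Of the 21 counts in control female A2-10, 10 were of a 15-nt sequence that overlaps no other 3p form, which leaves 11. In males at 2 d they were 0, 0, 13, 0, 0 and 7 with kisspeptin, against 14, 11, 11 and 7 in controls. In males at 4 d they were 1, 0, 4, 1 and 0 with kisspeptin, against 0, 7, 21, 0 and 0 in controls. The groups overlapped in counts in all 3 comparisons.

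In females miR-181a-3p had a log2 fold change of −3.79 (standard error 1.70, unadjusted p = 0.0366, adjusted p = 0.495, edgeR). It was −2.75 in males at 2 d (standard error 1.52, adjusted p = 0.559, edgeR) and −2.23 in males at 4 d (standard error 1.60, adjusted p = 0.942, edgeR). None of these passed the threshold. Without the 15-nt sequence, an alternative chosen after seeing the data, the value in females was −3.39 (unadjusted p = 0.0525, adjusted p = 0.495, edgeR), and it stayed at −2.75 and −2.23 in males. For miR-181c, also given after its values were seen, the log2 fold change was −1.24 in females (adjusted p = 0.819, edgeR) and −3.74 in males at 2 d (adjusted p = 0.559, edgeR). In control males at 2 d its counts were 3 in A2-11 and 4 and 7 in A2-12, all of sequences shared with miR-181b. Kisspeptin males A1-10 and A1-11-12 had 6 and 5 counts of such sequences under miR-181b only. In females, A1-3 and A2-7 had 8 each under miR-181b only, and A2-9 had 15 under miR-181c only. The miR-181c ratios thus depend on the name listed and are no support for a difference.

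The balance of the arms varied widely between fish. Of pooled miR-181a counts, the 3p arm held 0.318% in kisspeptin females, against 50.5% in control females, 2.58% in kisspeptin males at 2 d, against 22.2% in control males, and 1.05% in kisspeptin males at 4 d, against 6.28% in control males. Without the 15-nt sequence the 3p arm held 44.4% in control females. The largest 5p counts of the 3 kisspeptin groups were in A1-2, A1-10 and A4-9, with 578, 466 and 469. In single control females with at least 10 miR-181a counts the share ran from 0% to 100%, with or without the 15-nt sequence. Under the same minimum it was 0% in 3 kisspeptin females. In males at 2 d it ran from 0% to 2.71% with kisspeptin (3 fish) and from 10.4% to 84.6% in controls (4 fish). In males at 4 d it ran from 0.846% to 1.10% with kisspeptin (2 fish) and from 0% to 100% in controls (4 fish). Below the minimum, it was 100% in kisspeptin male A1-11-12 and 66.7% in kisspeptin female A1-4. These shares were not tested. The 3p arm exceeded the 5p arm in 7 of 30 libraries.

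The share of miR-181a-5p in all miR-181 counts of a fish, in fish with at least 10 such counts, gave no difference between treatments that passed the test. It was 50.5% ± 46.7 (SD, n = 4) in kisspeptin females and 21.8% ± 27.5 (n = 5) in control females (two-sided exact permutation test, p = 0.286). In males at 2 d it was 61.0% ± 46.5 with kisspeptin and 34.5% ± 34.2 in controls (n = 4 each, exact permutation test, p = 0.343). At 4 d, males had 61.8% ± 53.5 (n = 3) with kisspeptin and 66.3% ± 45.9 (n = 4) in controls (exact permutation test, p = 0.857, the smallest possible being 0.0571).

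Reads whose 5′ end differed from that of the leading form of the same name were also compared. They made up 34.6% ± 46.5 of miR-181 counts in kisspeptin females (n = 4) and 32.2% ± 32.1 in control females (n = 5, exact permutation test, p = 0.937). In males at 2 d the share was 11.8% ± 17.9 with kisspeptin and 20.6% ± 25.9 in controls (n = 4 each, exact permutation test, p = 0.543). At 4 d, males had 1.97% ± 3.42 with kisspeptin (n = 3) and 23.95% ± 41.0 in controls (n = 4, exact permutation test, p = 0.571). Shared sequences that begin at base 2 of miR-181b counted as shifted under that name, but not under miR-181c, whose leading form begins there. Of such sequences, 8 counts in A1-3 were shifted and 15 in A2-9 were not. These shares thus depend in part on the name listed. The 22-nt form took 32.6% ± 56.4 of miR-181a-5p counts in kisspeptin females (n = 3) and 0% in control females (n = 2), a comparison that cannot go below p = 0.2 (exact permutation test, p = 1). It took 47.9% ± 67.7 in kisspeptin males at 4 d (n = 2) and 0% in control males (n = 3, exact permutation test, p = 0.8), and 0% in both groups of males at 2 d. Those 0% values left the test in males at 2 d no other outcome. The 22-nt form leads by pooled counts from A1-2 and A4-9 alone, both kisspeptin fish. These comparisons of it are therefore no support for a difference. Over the 9 tests of shares, every adjusted p was 1.

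Single forms were rarely found in enough fish to test. Of the 51 miR-181 isomiRs, 3 passed the filter of 1 cpm in 4 libraries at 2 d, 4 in males of both days and 0 in males at 4 d. edgeR called none of them and 0 isomiRs in all (0%), of 684 tested at 2 d, 662 in males of both days and 362 in males at 4 d. Even so, 118 in females, 72 in males at 2 d and 15 in males at 4 d had an unadjusted p under 0.05. Among these were all 3 miR-181 forms tested in females and 1 in males at 2 d. DESeq2 called 13, 13 and 2 isomiRs in these comparisons and limma-voom 0, 0 and 1, none of them miR-181. The 21-nt form of miR-181a-3p was at 0 in all kisspeptin fish at 2 d, against 11 counts each in control females A2-9 and A2-10 (adjusted p = 0.264, edgeR) and 14 and 9 counts in control males A2-11 and A2-12 (adjusted p = 0.440, edgeR). This form passed the filter at 2 d through these control libraries alone. Its contrast is thus part of its selection, and its p-values are no support for a difference. The 22-nt form of miR-181b had 21 and 29 counts in kisspeptin females A1-1 and A1-11-9, against 0 in all control females (adjusted p = 0.251, edgeR). The 23-nt form was at 0 in all kisspeptin females, against 105 counts in control female A2-2 alone (adjusted p = 0.264, edgeR). Each of these ratios stands against a group at 0 and is not given. At 2 d the 22-nt form was otherwise counted only in A1-10 and A2-12, and the 23-nt form only in A1-12, A1-11-12 and A2-14. Both miR-181b forms thus passed the filter with 4 libraries, in part through the females compared. Their p-values in females are therefore no support for a difference.

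With no filter on low counts, edgeR called forms that few fish carried. The miR-181 isomiRs tested this way were 43 at 2 d, 27 in males at 4 d and 41 in males of both days. In females, 1 miR-181 form was called, the 22-nt form of miR-181a-5p, which was counted in A1-2 alone (adjusted p = 0.00969, edgeR), beside 1.4% of all 1857 isomiRs tested. The 21-nt form was called in males at 2 d (adjusted p = 0.0139, edgeR, 1.08% of all called), where it was counted in A1-10 and A1-13. At 4 d both forms were called in males (adjusted p = 0.0210 each, edgeR, 1.77% of all 1356 called), in opposite directions, the 22-nt form from A4-9 and the 21-nt form from A3-11. A form was also called for the difference of the effect between sexes (22-nt miR-181b, adjusted p = 0.0313, edgeR, 2.48% of all called), between days (21-nt miR-181a-5p, adjusted p = 7.76e-05, edgeR, 1.61% of all called) and in males minus females (a 20-nt form of miR-181a-5p from base 2, adjusted p = 0.0432, edgeR, 2.26% of all called). For 4 d minus 2 d, 0 of the family were called, beside 1.17% of all 1798 isomiRs. The lowest adjusted p of any miR-181 isomiR was taken from the main run and each alternative (edgeR, limma-voom or DESeq2). This minimum ran from 0.009686 to 0.677 in females and from 0.0139 to 1 in males at 2 d. It can belong to different isomiRs in different runs. No fitted ratio is given for these forms either, since most stand against groups at 0 counts. The 21-nt form of miR-181a-5p was counted in A1-10, A1-13 and A3-11 alone, and the 20-nt form from base 2 in 2 fish. At 2 d the 22-nt form of miR-181b was counted in A1-1, A1-11-9, A1-10 and A2-12 alone. All calls without the filter thus rest on few fish, and their p-values are no support for a difference.

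No other miRNA followed miR-181 closely over the 30 libraries. The 5 names with the highest Pearson correlation of log2 cpm with summed miR-181 reads, of 132 names compared, were miR-1c (r = 0.49), miR-16a (0.45), miR-205-5p (0.43), miR-199a-5p (0.42) and miR-1957a (0.42). The 3 libraries with no miR-181 count tie as the farthest from the median of miR-181. Without them, a choice made after seeing the data, r over 27 libraries was 0.03 for miR-1c and 0.23 for miR-16a, and 0.32, 0.31 and 0.22 for the other 3 in that order. The libraries share the scaling to their totals, and r with the log2 library total was 0.02. These values are a description.

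Leukocyte miRNAs (miR-142, miR-150, miR-155, miR-223 and miR-146) were all counted, at a summed 36783 to 91566 cpm in kisspeptin females and 30729 to 76322 cpm in control females, 40990 to 81101 cpm in kisspeptin males at 2 d and 60865 to 69968 cpm in control males, and 51681 to 113746 cpm in kisspeptin males at 4 d and 38956 to 89106 cpm in control males. Of their 7 names tested at 2 d, edgeR called 0. The median log2 fold change of these names was 0.04 in females, where it was 0.04 over all names tested, and 0.48 in males at 2 d, where it was −0.10 over all names. In males at 4 d it was 0.21 over 6 names, against 0.03 over all names. A part of these cells in the miR-181 levels was not tested.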

How the data were processed

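Small RNA from plasma was sequenced in 2 runs of 15 libraries, which the labels do not assign, so nothing was compared within runs. The authors trimmed adapters and 4 random bases from each read end with cutadapt (2.1 in the submitters' processing notes, which also list Bowtie2 2.4.1 and HTSeq 0.6.0), mapped reads to miRBase 21 hairpins of all species and kept the species with the highest expression for each name. They deposited isomiR counts without normalization. All cpm and shares are relative to the 172 names in these counts, and other names were not analysed here. Of 2011 sequences, 112 stood under several names. No genome location is given for the miRNAs.

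Counts were summed to 172 names and to 98 numbers. Names, numbers and isomiRs with at least 1 cpm in at least 4 fitted libraries were tested with edgeR 4.0.16 (TMM, quasi-likelihood test, limma 3.58.1, R 4.3.3) and Benjamini-Hochberg adjustment over all features tested, at 0.05. The 20 libraries of 2 d, the 10 of males at 4 d and the 20 of males at both days were each fitted together. Shares, in fish with at least 10 counts, were compared with exact permutation tests (scipy 1.17.1), with 9 tests adjusted together. Python 3.11.15, numpy 2.4.6, pandas 2.3.3 and matplotlib 3.10.9 were used. The edgeR step was run on simulated counts with the same dispersion for all features and a large change. That run does not show how it performs on sparse and variable names such as those of miR-181.

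Tests are printed for summed miR-181 reads and for names with at least 5% of miR-181 counts. IsomiRs named are those with at least 5% of such a name, the leading form of each name, the leading form with another 5′ end and any past the threshold, and the 5 most alike names are given. The members and lists were chosen with earlier results of these data known. The alternatives were limma-voom, DESeq2 1.42.0, no scaling factors, other filters, all 30 libraries in 1 fit, the 2 groups alone, each sequence under 1 name and each fish left out. For each sequence under 1 name, the name with the most counts was kept and 118 isomiRs were dropped with their counts. Levels were also computed with a prior count of 0.25, and shares with at least 50 counts or no minimum. No libraries of a group were identical in 61 pairs, and a chi-square test of their counts gave 52.2 to 247 per degree of freedom. Each library is a separate fish, and p-values measure the spread between fish of the same tank.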

Additional observations from a re-analysis of the deposited data

Results flagged for a closer look

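Of 31 sets of fish (a name or the sum in a group of 4 to 6 fish), 6 had 1 fish far from the others by Dixon's criterion, which flags about 1 in 20 sets by chance where values do not tie. In 5 of them all other fish tied at 0 counts, a log2 cpm of 3.717, so that any count in a single fish meets the criterion and the chance rate does not apply. miR-181a-3p was at 5.592 in kisspeptin female A1-4, from 2 counts. miR-181c was at 4.898 in kisspeptin male A1-12 at 2 d, at 5.666 in kisspeptin male A4-3 at 4 d and at 7.183 in control male A3-5 at 4 d, from 1, 5 and 12 counts. miR-181d was at 4.37 in A4-3, from 1 count. In the sixth, summed miR-181 reads were at 3.717 in control male A3-2 at 4 d, where no read was counted and the nearest fish of the group stood at 9.805.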

How the results depend on the processing

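No miR-181 name was called in any alternative run, over all 7 comparisons. Under alternatives other than leaving out a fish, 238 log2 fold changes of miR-181 names and their sum kept their sign and 10 reversed, none of the main values being past the threshold. With limma-voom, the sum was −1.44 in males at 2 d, 0.003269 in males at 4 d and 1.795 for the difference between days. miR-181a-5p was −1.124 in males at 2 d and 0.1992 for the difference between days, miR-181a-3p −1.666 for the difference between sexes, and miR-181c 0.03776 in females and −0.724 for 4 d minus 2 d. That last value was −0.07478 with DESeq2 and −0.05112 with no scaling factors. The cause of these reversals was not tested. With no filter on low counts, 1 miR-181 isomiR was called in females, in males at 2 d and in males minus females. The same number was called for the differences between sexes and between days, and 2 in males at 4 d. With the filter 0 were called. Those calls rest on few fish and are no support for a difference. The share of shifted 5′ ends in females was −7.885 percentage points, kisspeptin minus control, with at least 50 counts and −5.982 with each sequence under 1 name. The latter run dropped isomiRs with their counts, among them 15 counts listed for A2-9 under miR-181c only. Requiring 1 cpm in all libraries left no miR-181 name to test. With a prior count of 0.25 or no scaling, 16 of 72 group levels moved by more than 1 SD, all of miR-181a-3p, miR-181c or miR-181d. Among them were miR-181d levels of groups with 0 counts in every fish, where the SD was 0. There the level of a count of 0 itself moved, from 3.717 to 1.718 or 3.649.

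Leaving out each fish in turn, the log2 fold change of the sum ranged from 0.4006 to 2.269 in females, from 0.1366 to 1.425 in males at 2 d, from −1.84 to 0.4312 in males at 4 d and from −1.483 to 0.4201 for the difference between sexes. miR-181a-5p ranged from 0.7624 to 4.718 in females, from 0.6077 to 3.152 in males at 2 d, from −2.566 to 0.6691 in males at 4 d, from −3.352 to 0.6035 for the difference between sexes and from −1.284 to 0.5511 for 4 d minus 2 d. miR-181b ranged from −0.4274 to 2.246 in females, from −1.453 to −0.3065 in males at 2 d, from −0.6372 to 1.599 in males at 4 d and from −0.1731 to 2.442 for the difference between days. miR-181a-3p ranged from −0.2736 to 3.432 and from −0.6856 to 1.829 for the differences between sexes and days. miR-181c ranged from −2.536 to 0.2384 in females, from −0.2398 to 6.313 for the difference between days and from −1.751 to 0.8562 for 4 d minus 2 d. The share of miR-181a-5p ranged from −26.65 to 26.33 percentage points in males at 4 d, and that of shifted 5′ ends from −19.41 to 14.1 in females and from −17.59 to 3.813 in males at 2 d. No paired analysis was possible because the replicate numbers only name fish in accession order. With a median of 60539 counts, names at a few counts per library could not be compared at this depth.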
